A study of Mus musculus with 4 samples.

Results

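Genes of the contractile apparatus and the actin cytoskeleton were followed in dermal fibroblasts of newborn mice with and without ADAM9, a membrane-anchored metalloprotease. The 35 genes encode smooth muscle contractile proteins, stress fibre proteins and actin-linked adhesion proteins, and all 35 were among the 18193 genes named on the array. Every probe set whose platform annotation named a single gene from this list was taken, which gave 84 of the single-gene probe sets, and the one with the highest mean value stood for its gene. The groups were adam9 -/- cells (knockout, 2 isolations) and adam9 +/+ cells (wild type, 2 isolations), all fibroblasts from skin at postnatal day 1. Per the labels, cells were seeded at equal number in square plates of 10 cm and kept for 48 h without treatment before RNA extraction, and each isolation was read on 1 array. Values are given on the authors' scale, taken as log2. The labels give no strain or sex and do not say which part of Adam9 was deleted, how many animals made an isolation, or whether isolations with equal numbers shared a litter or a day. The p-values below therefore measure the spread between isolations, which may be partly technical.

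In a contractile cell, myosin filaments pull on actin filaments that are anchored by crosslinkers to focal adhesions, the plaques that connect the cytoskeleton through integrins to the matrix. Phosphorylation of the myosin regulatory light chain by myosin light chain kinase starts contraction, while tropomyosins, calponins and caldesmon lie along the actin filament and modulate it. Many of these genes are targets of serum response factor, SRF, which binds a DNA element called the CArG box together with the actin-sensing cofactors MRTF-A and MRTF-B. In skin, fibroblasts that take on this programme during wound closure are called myofibroblasts, and cultured fibroblasts on stiff plastic express much of it without treatment.

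The promoters were searched for the SRF element. RefSeq promoter windows of GRCm38.p6, running from 250 bases before to 50 bases after a gene's start, matched 30 of the 35 genes with 36 windows. The CArG box in its consensus form was found in windows of 6 of these 30 genes, or 20%, against 1.81% of the 27025 genes with a window in the table. The 6 genes were Cnn2, Myl9, Myl6, Vcl, Fhl2 and Srf. The shorter motif CATTCC, the core bound by TEAD factors, was searched on both strands and stood in windows of 12 of the 30 genes, or 40%, against 16.6% of all genes. None of these CATTCC matches overlapped a CArG box in the same window. A match is a description of the letters and no evidence of binding. The 4 windows shown here run 5′ to 3′ on the gene's strand, with the CArG boxes in capitals, and were chosen since they stand for a myosin light chain, a calponin, an adhesion protein and the factor itself.
Srf (GRCm38.p6, chr17:46556113-46556412, minus strand): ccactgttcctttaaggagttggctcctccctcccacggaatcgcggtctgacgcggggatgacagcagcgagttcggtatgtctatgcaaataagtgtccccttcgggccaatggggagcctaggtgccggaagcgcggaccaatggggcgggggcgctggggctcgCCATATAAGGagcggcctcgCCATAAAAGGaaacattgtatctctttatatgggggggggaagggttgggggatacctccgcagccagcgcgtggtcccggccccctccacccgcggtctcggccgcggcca
Vcl (GRCm38.p6, chr14:20929148-20929447, plus strand): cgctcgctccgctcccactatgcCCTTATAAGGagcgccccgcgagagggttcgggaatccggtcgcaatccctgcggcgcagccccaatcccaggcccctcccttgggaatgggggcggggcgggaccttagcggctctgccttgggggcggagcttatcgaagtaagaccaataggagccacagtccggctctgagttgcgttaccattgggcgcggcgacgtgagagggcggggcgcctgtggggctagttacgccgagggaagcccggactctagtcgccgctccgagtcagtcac
Myl9 (GRCm38.p6, chr2:156775214-156775513, plus strand): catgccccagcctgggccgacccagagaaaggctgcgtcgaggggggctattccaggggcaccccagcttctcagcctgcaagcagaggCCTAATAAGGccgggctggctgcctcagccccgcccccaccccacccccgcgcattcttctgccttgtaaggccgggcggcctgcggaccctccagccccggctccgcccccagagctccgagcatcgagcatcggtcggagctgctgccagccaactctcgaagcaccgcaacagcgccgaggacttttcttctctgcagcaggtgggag
Cnn2 (GRCm38.p6, chr10:79988350-79988649, plus strand): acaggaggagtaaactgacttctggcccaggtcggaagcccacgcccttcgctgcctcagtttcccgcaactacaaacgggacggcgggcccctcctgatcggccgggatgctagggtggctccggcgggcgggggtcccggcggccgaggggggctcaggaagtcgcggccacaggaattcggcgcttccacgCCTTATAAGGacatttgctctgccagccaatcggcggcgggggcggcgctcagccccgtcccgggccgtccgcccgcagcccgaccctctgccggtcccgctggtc
The Srf window holds 2 boxes, at positions -82 to -73 and -62 to -53 from the start. The box lies at -227 to -218 in Vcl, at -161 to -152 in Myl9 and at -56 to -47 in Cnn2. The differences in expression of the 6 genes with a box ranged from -0.66 to -0.10 log2 units with a median of -0.33. The 24 genes with windows but no such match ranged from -2.03 to 0.42 with a median of -0.31. Elements that depart from the consensus or lie outside the windows were not searched, so these genes may still have one. No test compared these sets. For 5 genes, Actg2, Tagln, Myh11, Pxn and Csrp2, no window was available, so their promoters were not searched. Their differences ranged from -3.12 to 0.41 with a median of -0.32.

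The arrays were first checked on genes outside the list. Adam9 read 8.33 and 8.55 in the knockout isolations, against 11.58 and 11.70 in the wild-type isolations (difference -3.20, limma adjusted p = 0.0242). The sex-linked genes separated the same arrays. Xist, the RNA of the inactive X chromosome, stood at 10.38 and 10.40 in the knockout and at 4.29 and 4.32 in the wild type, and the Y-linked Eif2s3y, Kdm5d and Uty were low in both knockout and high in both wild-type arrays. Genotype and this sex-linked pattern cannot be told apart in any difference below. All 11 dermal fibroblast markers measured were above the floor used for testing (4.17, the 40th percentile of all probe sets) on every array. Their median log2 level was 12.81 and 12.78 in the knockout isolations and 12.41 and 12.32 in the wild-type isolations. Of the 11, 3 had a negative difference (knockout minus wild type), against 49.4% of all genes tested, and the median was 0.11. In Lum (lumican, 1.54), Pdgfra (1.16) and Dpt (0.95) both knockout arrays lay above both wild-type arrays. That is 3 of 11, against 23% of all genes tested. In wild-type isolation 2 some were low, such as Lum, at 10.13 beside 12.38 in wild-type isolation 1. Macrophage markers stood out in wild-type isolation 1, with a median of 8.50 over 16 genes. That median was 4.21 and 4.36 in the knockout isolations and 4.62 in wild-type isolation 2.

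Most of the listed contractile and cytoskeletal genes stood lower in the knockout, and no single gene passed the test. The list was chosen with earlier results of these data known, so the counts below only describe it. Its genes also moved together. Wild-type isolation 2 was highest and knockout isolation 2 lowest for 60% of them, against 12.5% of all genes tested. They are therefore not independent observations. Of the 35 genes, 31 had a negative difference (knockout minus wild type), with a median of -0.31 log2 units over all 35, beside 49.4% negative and a median of 0.00 over the 13271 genes tested. Both knockout isolations lay below both wild-type isolations for 25 genes, or 71.4%, and 1 gene, the tropomyosin gene Tpm4, lay above in both. Over all genes tested 22% were lower without overlap and 23% were higher. In limma's moderated test with Benjamini-Hochberg adjustment 0 of the 35 passed at 0.05, and 0.0678% of all genes tested did, 0.0527% lower and 0.0151% higher in the knockout. These were 9 genes, among them Adam9 itself and the sex-linked Xist, Eif2s3y, Kdm5d and Uty. At an adjusted p under 0.1 it was again 0 members, against 0.43% of all genes. At an unadjusted p under 0.05 there were 8 lower and 0 higher members, against 5.24% and 6.18% of all genes. Differences of at least 2-fold were found in 6 members, all lower in the knockout, against 1.94% of all genes lower and 2.87% higher. In 5 of the 6 the genotypes did not overlap, against 1.73% of all genes. For 18 members the knockout was lower by more than the gap within either genotype, or 51.4%, against 15% of all genes, and for 1 it was higher by as much, against 15.8%. With 1 array per isolation, and 2 per genotype, the spread of each gene rests on 2 residual degrees of freedom, so a missed threshold does not show that a gene was alike in both genotypes.

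**Figure D1:**
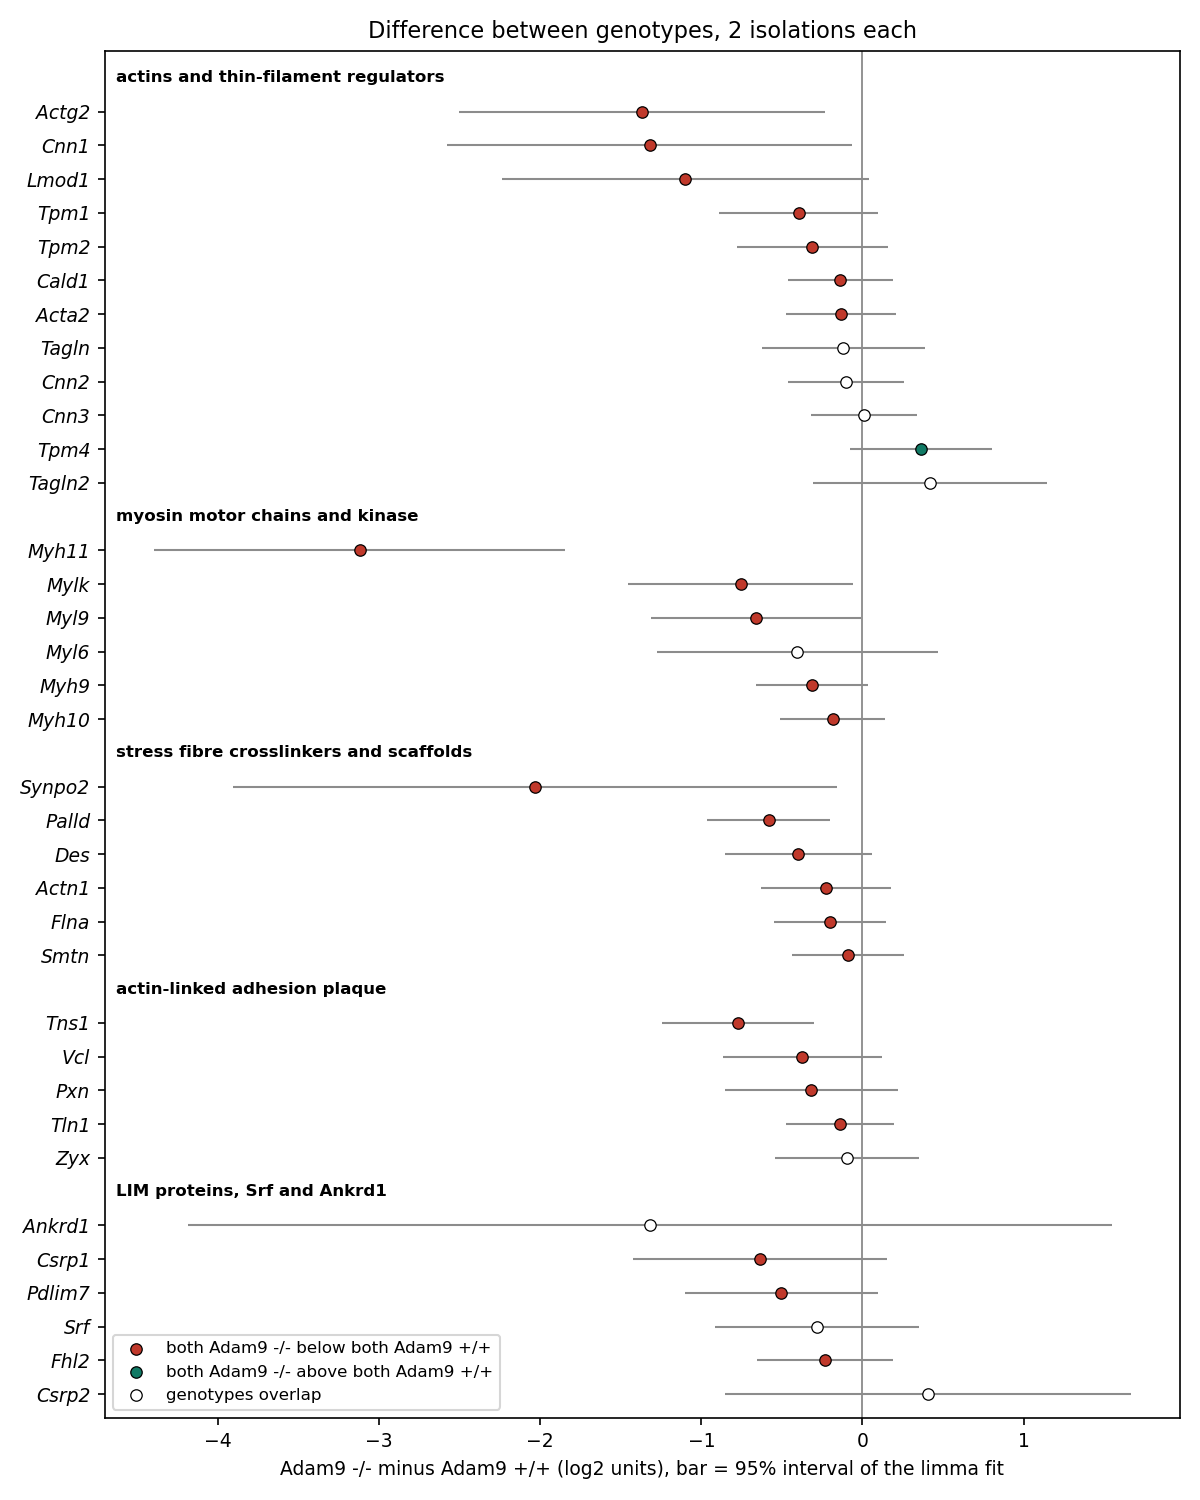
Difference between adam9 -/- and adam9 +/+ fibroblasts in log2 units (x axis) for each of the 35 genes, grouped by role (y axis), with bars for the 95% interval of the limma fit over 2 isolations per genotype. Filled points mark genes whose genotypes do not overlap, 25 of them lower and 1 higher in the knockout, and Myh11 lies farthest from 0 at -3.12.

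**Figure D2:**
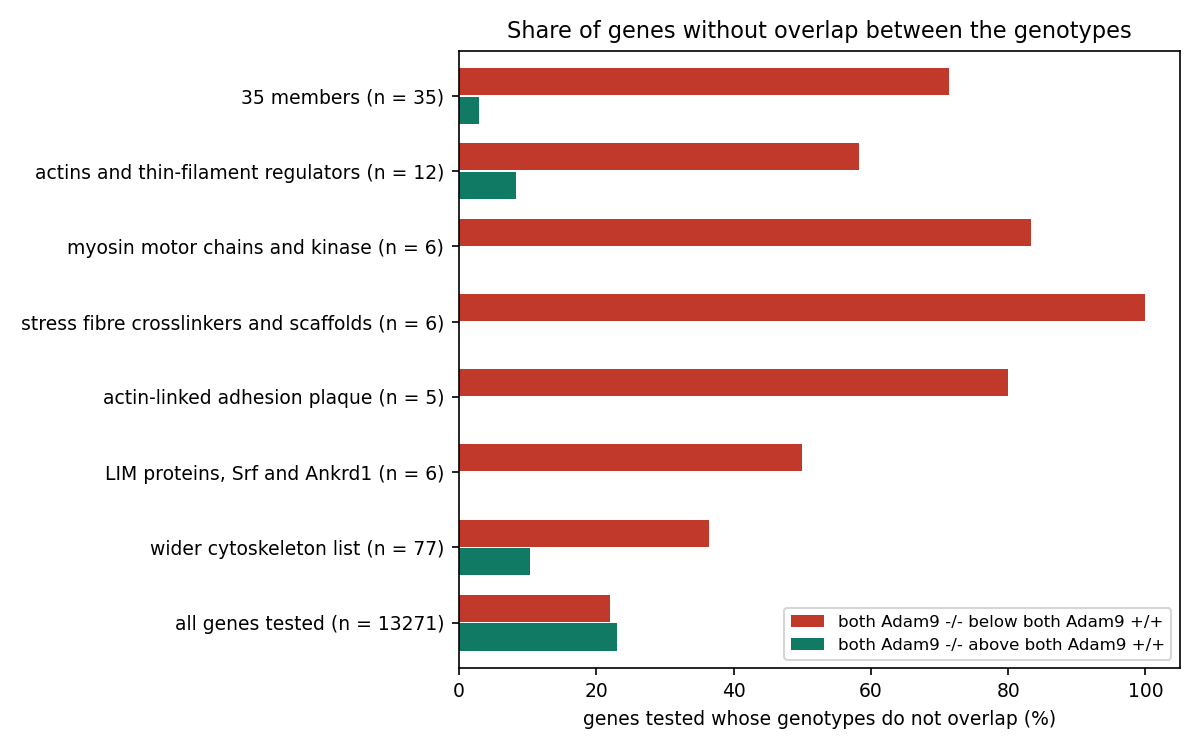
Percent of genes tested (x axis) whose adam9 -/- values both lay below (red) or both above (green) the adam9 +/+ values, for the 35 genes, their role groups, the wider cytoskeleton list and all genes tested. The red bar reaches 71.4% for the 35 genes and 22% for all genes tested.

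The myosin genes held the largest difference of the list. Myh11, the smooth muscle myosin heavy chain, stood at 6.55 and 5.48 in the knockout isolations, against 8.71 and 9.57 in the wild-type isolations. Both knockout arrays were low and both wild-type arrays high, and the closest pair, knockout isolation 1 and wild-type isolation 1, differed by -2.16. The means of 6.01 ± 0.750 and 9.14 ± 0.606 (SD, n = 2 each) differed by -3.12 (SE 0.476, 8.71-fold lower, 95% interval -4.40 to -1.84), with a limma adjusted p of 0.189. Its other probe set stood at 4.40 and 3.99 in the knockout and at 4.92 and 5.33 in the wild type, again without overlap, and differed by -0.93. That probe set was dim, and its value in knockout isolation 2 lay under the floor of 4.17. The difference of the mean over both probe sets was -2.03. With each of the arrays left out in turn, the difference of the brighter probe set stayed between -3.65 and -2.59.

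Mylk encodes myosin light chain kinase, which phosphorylates the regulatory light chain. It had 8.44 and 7.76 in the knockout isolations, against 8.86 and 8.84 in the wild-type isolations. The wild-type arrays were nearly alike while knockout isolation 2 was the lowest, and the difference was -0.76 (SE 0.260, adjusted p = 0.420). It was -0.41 without knockout isolation 2. A further probe set of Mylk differed by -0.74. Myl9, the smooth muscle regulatory light chain itself, had 12.44 and 11.91 in the knockout, against 12.67 and 12.99 in the wild type. The genotypes did not overlap, and the difference of -0.66 (SE 0.243, adjusted p = 0.434) was -0.39 without knockout isolation 2.

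The other myosin members differed less. The non-muscle heavy chains, which power stress fibres in most cells, both lay lower without overlap. Myh9 averaged 12.36 ± 0.078 in knockout cells, beside 12.68 ± 0.061 in wild-type cells (SD, n = 2 each), a difference of -0.31 (95% interval -0.66 to 0.03), and all 5 of its probe sets had negative differences. Myh10 had 10.11 and 10.16 in the knockout and 10.33 and 10.32 in the wild type, a difference of -0.18. These gaps were larger than the spread within either genotype. Myl6, the essential light chain shared by smooth muscle and non-muscle myosin, overlapped, with 8.37 and 7.62 in the knockout and 8.16 and 8.64 in the wild type. Its value comes from 1 probe set, and 2 further probe sets that name Myl6 together with other genes were not used. All 6 genes of this group, the myosin chains and the kinase gene Mylk, were on the negative side, against 49.4% of all genes tested. Their median difference was -0.53.

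Among actins and thin-filament regulators, the smooth muscle genes Actg2, Cnn1 and Lmod1 had the largest differences. Actg2, the gamma actin of enteric smooth muscle, had 9.83 and 9.60 in the knockout isolations, against 10.50 and 11.67 in the wild-type isolations. Wild-type isolation 2 stood above the other wild-type array by 1.18, close to the difference between genotypes of -1.37 (SE 0.423, 2.58-fold lower, adjusted p = 0.387). Without wild-type isolation 2 the difference was -0.78.

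Cnn1, the smooth muscle calponin that inhibits myosin's ATPase on actin, had 10.29 and 9.50 in the knockout, against 10.68 and 11.76 in the wild type. The nearest arrays, the isolations numbered 1, differed by -0.38. The difference of -1.32 (SE 0.468, adjusted p = 0.426) became -0.78 without wild-type isolation 2. Lmod1, leiomodin, which nucleates actin filaments in smooth muscle, had 6.83 and 5.95 in the knockout, against 7.08 and 7.90 in the wild type. Its difference of -1.10 (SE 0.424, adjusted p = 0.447) was -0.66 without knockout isolation 2 and -0.69 without wild-type isolation 2.

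The calponins of non-muscle cells differed little. Cnn2 had 12.34 and 12.24 in the knockout and 12.32 and 12.47 in the wild type, and Cnn3 had 12.78 and 12.74 in the knockout and 12.79 and 12.71 in the wild type. The intervals of their differences ran from -0.46 to 0.26 for Cnn2 and from -0.32 to 0.34 for Cnn3, so that a difference of -1 log2 unit lay outside both. All 6 Cnn3 probe sets had differences between 0.01 and 0.14. Whether these differences are unlike that of Cnn1 was not tested.

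Acta2, the alpha smooth muscle actin used as the myofibroblast marker, gave probe sets that differ in size. The probe set with the highest mean had 13.82 and 13.74 in the knockout, against 13.87 and 13.96 in the wild type, near the top of the arrays' range, whose maximum was 14.3 to 14.4. There the genotypes were separate but close, with a difference of -0.13 (SE 0.127, adjusted p = 0.720). That probe set carries the suffix _s_at, which marks probes that can match several transcripts. A second probe set had 6.28 and 5.88 in the knockout and 7.22 and 8.67 in the wild type, a difference of -1.87 (SE 0.511, adjusted p = 0.354 with probe sets fitted singly). The remaining one had 4.89 and 4.22 in the knockout and 4.54 and 5.57 in the wild type and overlapped. The files do not say which stretch of the transcript each probe set covers.

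Tagln, transgelin or SM22, another early smooth muscle marker, had 13.64 and 13.37 in the knockout and 13.46 and 13.79 in the wild type. The genotypes overlapped, with a difference of -0.12 (95% interval -0.62 to 0.39). Tagln has 1 probe set, whose values also lay near the top of the arrays' range. Its paralog Tagln2 went the other way, at 10.20 and 10.61 in the knockout and 9.69 and 10.28 in the wild type, again with overlap (0.42, 95% interval -0.31 to 1.14). The tropomyosins split. Tpm1 and Tpm2, which form the main muscle-type coiled coils on actin, differed by -0.40 and -0.31 without overlap, and each of their tested probe sets was negative. Without wild-type isolation 2 these differences were -0.20 and -0.16. Tpm4, a tropomyosin of non-muscle cells, had 12.59 and 12.88 in the knockout, against 12.29 and 12.45 in the wild type, a difference of 0.36 (SE 0.164, adjusted p = 0.494). Cald1, caldesmon, was tightly grouped at 13.18 and 13.23 in the knockout and 13.36 and 13.33 in the wild type (-0.14), and its 4 dimmer probe sets differed by -0.18, -0.24, -0.77 and 0.04. Of the 12 genes in this group 9 were negative, against 49.4% of all genes tested, and 7 were lower without overlap, against 22%.

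**Figure D3:**
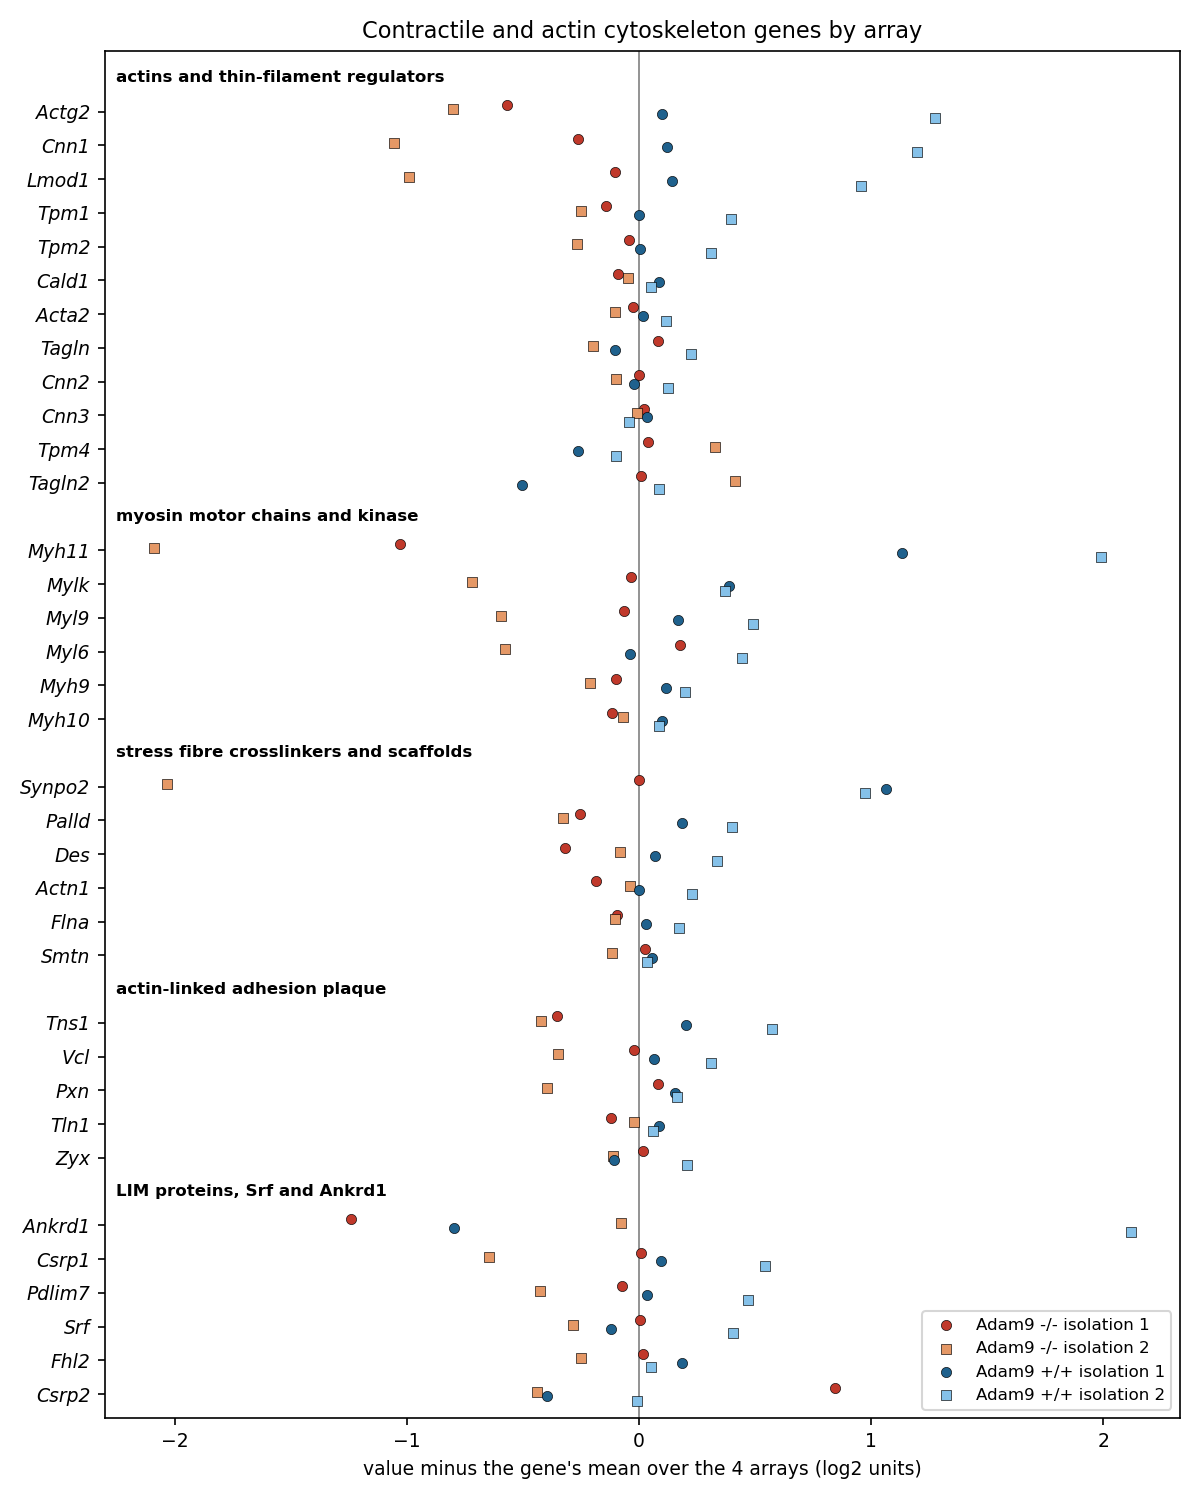
Value of each gene minus its mean over the 4 arrays in log2 units (x axis), for adam9 -/- (red and orange) and adam9 +/+ (dark and light blue) isolations, grouped by role (y axis). Adam9 -/- isolation 2 lies lowest for 26 genes and adam9 +/+ isolation 2 lies highest for 24.

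All 6 stress fibre crosslinkers and scaffolds lay lower without overlap, as did 22% of all genes tested. Synpo2, synaptopodin 2 or myopodin, which bundles actin in muscle cells, had 6.54 and 4.51 in the knockout isolations, against 7.60 and 7.51 in the wild-type isolations. The knockout isolations were 2.04 apart, more than the difference between genotypes of -2.03 (SE 0.699, 4.09-fold lower, adjusted p = 0.418), and without knockout isolation 2 it was -1.02. The other 3 probe sets of Synpo2 differed by -1.19, -1.37 and -0.51, each without overlap. Palld, palladin, an actin bundler of stress fibre dense bodies, was more even, with 10.60 and 10.53 in the knockout and 11.04 and 11.26 in the wild type. Its difference of -0.58 (SE 0.142, adjusted p = 0.314, 95% interval -0.97 to -0.20) stayed between -0.69 and -0.48 with any array left out, and all 3 of its tested probe sets were negative.

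Des, desmin, the intermediate filament of muscle, averaged 5.67 ± 0.168 in knockout cells, beside 6.07 ± 0.189 in wild-type cells (SD, n = 2 each), a difference of -0.40. The actin crosslinkers Flna, filamin A, and Actn1, alpha-actinin 1, differed by -0.20 and -0.23. Flna is X-linked and was measured between arrays that also differed in Xist. One of 3 Actn1 probe sets showed a difference of 0.00. Smtn, smoothelin, differed by -0.09 and its nearest arrays by -0.01.

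In the adhesion plaque, Tns1 stood out. Tensin 1 caps actin filaments and links them to integrin tails. It had 8.36 and 8.29 in the knockout isolations, against 8.91 and 9.29 in the wild-type isolations. Knockout arrays were nearly alike, both were low, and the difference was -0.77 (SE 0.175, 1.71-fold lower, adjusted p = 0.297, 95% interval -1.24 to -0.30). It stayed between -0.96 and -0.59 with any array left out, and its other probe sets differed by -0.64 and -0.59. Vcl, vinculin, which reinforces adhesions under tension, differed by -0.37 in the brighter of its 2 probe sets and by -0.41 in the dimmer one, both without overlap. The brighter one differed by -0.21 without knockout isolation 2 and by -0.25 without wild-type isolation 2. Pxn, paxillin, a scaffold of adhesions, differed by -0.32 (-0.08 without knockout isolation 2). Tln1, talin 1, which activates integrins and binds actin, differed by -0.14, and its 2 dimmer probe sets by 0.20 and -0.32. Zyx, zyxin, a tension-sensitive LIM protein, overlapped at 10.25 and 10.12 in the knockout and 10.12 and 10.43 in the wild type.

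Among the LIM proteins, Srf and Ankrd1, 5 of 6 differences were negative, against 49.4% of all genes tested. Csrp1, a LIM protein of smooth muscle and fibroblasts, had 11.69 and 11.03 in the knockout and 11.77 and 12.22 in the wild type (-0.64, SE 0.294), and its other probe set gave -0.65. Its difference was -0.31 without knockout isolation 2 and -0.41 without wild-type isolation 2. Pdlim7, enigma, which tethers proteins to actin bundles, differed by -0.50 without overlap, and by -0.29 without wild-type isolation 2. Its other probe sets, at -0.17 and -0.27, overlapped. Fhl2, a LIM-only cofactor that binds integrins and transcription factors, differed by -0.23. Csrp2 was high in 1 knockout array, with 9.42 and 8.13 in the knockout and 8.17 and 8.56 in the wild type. Its difference of 0.41 had an interval from -0.85 to 1.67.

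Srf overlapped, at 7.72 and 7.43 in the knockout and 7.60 and 8.12 in the wild type, a difference of -0.28 (95% interval -0.91 to 0.35). Its second probe set differed by 0.06. Ankrd1, a nuclear and sarcomeric ankyrin repeat protein and a common readout of YAP and SRF activity, had 7.70 and 8.86 in the knockout isolations, against 8.14 and 11.06 in the wild-type isolations. Wild-type isolation 2 alone was high, and the other 3 arrays lay within 1.16 of each other. The difference of -1.32 (SE 1.07, adjusted p = 0.674) was 0.14 without that array, and its second probe set, at -1.40, was likewise highest there.

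The arrays differed in these genes within each genotype too. Wild-type isolation 2 was the highest array for 24 of the 35 genes, against 24.9% of all genes tested, and knockout isolation 2 was the lowest for 26, against 33.1%. Wild-type isolation 2 was above wild-type isolation 1 for 27 genes, against 49.3% of all genes, and knockout isolation 2 below knockout isolation 1 for 27, against 53.5%. Knockout isolation 1 was the lowest array for 6 genes, against 19.3%. The highest in wild-type isolation 2 and the lowest in knockout isolation 2 coincided for 21 genes, or 60%, against 12.5% of all genes. The median deviation from the gene's own mean was -0.04 and -0.25 log2 units in knockout isolations 1 and 2, and 0.06 and 0.31 in wild-type isolations 1 and 2. Between the isolations numbered 1, 27 of 35 genes were lower in the knockout with a median difference of -0.14, against 6200 of all 13271 genes tested. Between those numbered 2 it was 32 genes with a median of -0.56, against 6771. Knockout isolation 1 lay below wild-type isolation 2 for 32 genes (median -0.33), against 6164. Knockout isolation 2 lay below wild-type isolation 1 for 32 genes (median -0.25), against 6962. The median over the list was -0.19 without wild-type isolation 2 and -0.21 without knockout isolation 2, and -0.42 and -0.46 without knockout isolation 1 and wild-type isolation 1. With any array left out, 0 passed the test. Under at least 1 of these omissions the difference of 29 genes turned or moved by over 1.5 times, and that of 6 genes, Myh11, Myh9, Myh10, Palld, Tns1 and Cald1, did not. The same count over all genes tested was not made, so whether 29 of 35 is unusual is not known.

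**Figure D4:**
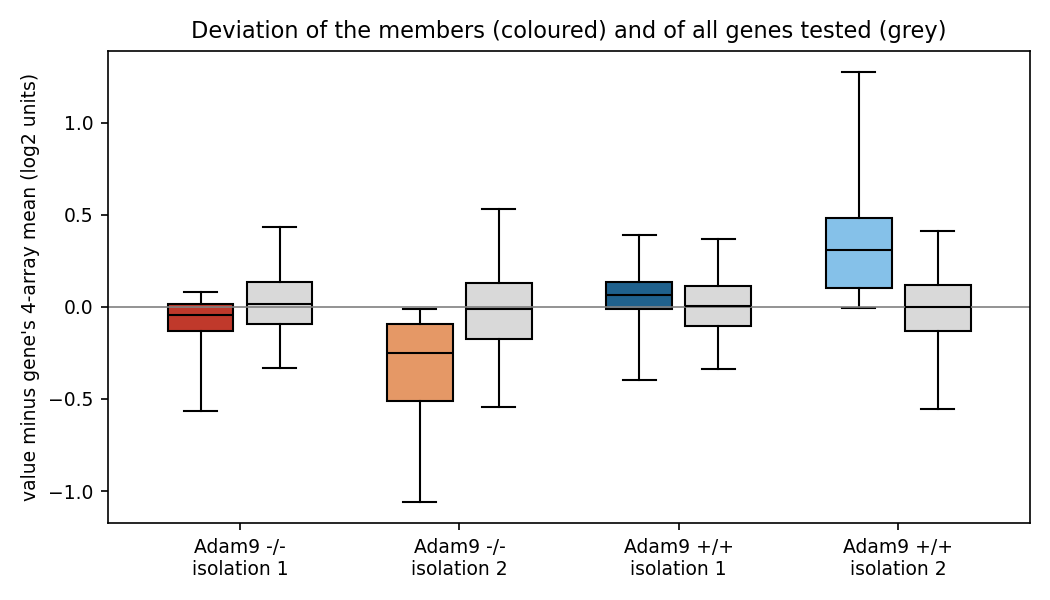
Deviation of each gene from its mean over the 4 arrays in log2 units (y axis) for the 35 genes (coloured boxes) and all 13271 genes tested (grey boxes) on each array, with boxes between the quartiles, a line at the median and whiskers from the 5th to the 95th percentile. The median of the 35 genes is -0.25 on adam9 -/- isolation 2 and 0.31 on adam9 +/+ isolation 2, while the grey medians lie near 0.

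Probe sets of one gene mostly shared the sign of the difference. Of the 84 probe sets, 77 were above the floor and 7 were at or under it. Of the 77, 81.8% had a negative difference, against 50.9% of the 23595 single-gene probe sets fitted singly, and 47 were lower without overlap, or 61%, against 22.8%. Without overlap 5 were higher, against 21.8%. Fitted singly, 0 of the 77 passed limma's test, while 0.0424% of all probe sets did. At an unadjusted p under 0.05 there were 16 lower and 0 higher, against 5.46% and 5.61% of all probe sets. Several tested probe sets were available for 21 genes. In 15 of these genes every tested probe set was negative, in 2 (Tagln2 and Cnn3) every one was positive, and Srf, Actn1, Tln1 and Cald1 had both signs. Probe sets of 1 gene are not independent measurements, since they read the same RNA.

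**Figure D5:**
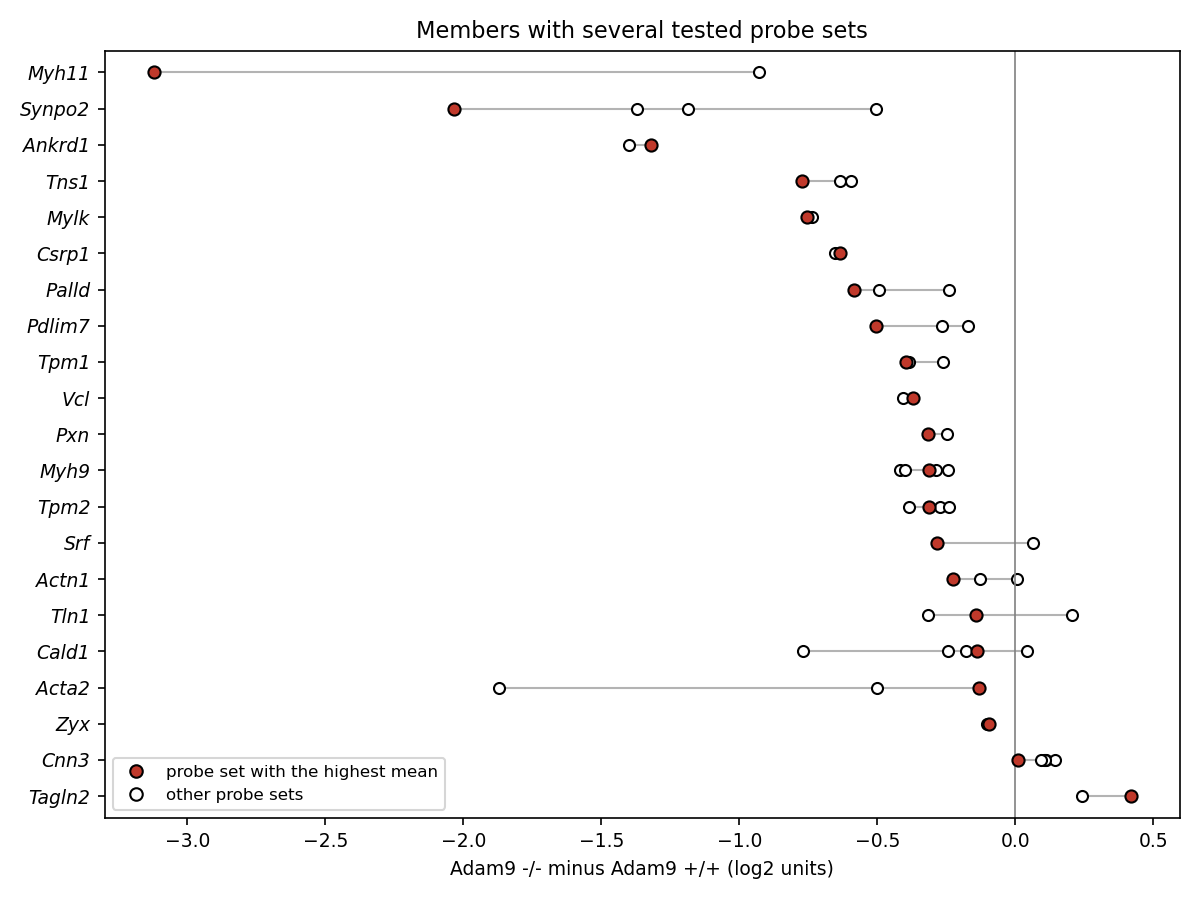
Difference between adam9 -/- and adam9 +/+ in log2 units (x axis) for every tested probe set of the 21 genes with several (y axis), with the probe set of highest mean in red and the others open. Myh11, Synpo2 and Acta2 have the widest ranges, and 15 genes have all points left of 0.

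The wider list of cytoskeletal genes outside these 35 had a median nearer to 0. Of 86 genes, 77 were tested, 50 of them negative with a median of -0.12. Without overlap 28 were lower and 8 higher, against 22% and 23% of all genes tested. In limma's test 0 passed, and at an unadjusted p under 0.05 there were 7 lower and 2 higher, against 5.24% and 6.18% of all genes. Lower without overlap were 7 of 14 other crosslinkers and LIM proteins, 6 of 15 actin assembly and severing factors, 5 of 16 other adhesion plaque genes and 1 of 10 other actins, myosins and tropomyosins, each beside the 22% of all genes. In the group of SRF cofactors 4 of 5 were tested, with differences from -0.32 to 0.37. The 8 largest differences without overlap are named here. Fhl1, a LIM-only protein of muscle, had 10.74 and 10.56 in the knockout, against 11.69 and 12.37 in the wild type (-1.38, SE 0.266, adjusted p = 0.258). Acta1, skeletal muscle actin, had 9.62 and 9.06 in the knockout, against 9.97 and 11.40 in the wild type (-1.35). Sorbs2, an adaptor of stress fibres, differed by -1.56, with 1 high array, wild-type isolation 2 at 7.99. Parvb, beta-parvin of integrin adhesions, differed by -1.41. Pdlim1 differed by -0.87, again with wild-type isolation 2 high, at 11.38 beside 10.23 in wild-type isolation 1. The difference was -0.76 (SE 0.136) for the actin monomer binder Cap1 and -0.74 for Ppp1r12b, a targeting subunit of myosin phosphatase. Diaph3, a formin that also serves cytokinesis, had the opposite sign, with 6.97 and 6.80 in the knockout and 5.44 and 5.82 in the wild type (1.25, SE 0.184, adjusted p = 0.184).

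Several smooth muscle genes are also markers of pericytes and vascular smooth muscle, and other cell types are given as values beside the list. In bulk RNA, fewer cells of a type and less RNA per cell cannot be told apart. Of 14 smooth muscle and pericyte markers outside the 35 genes, 12 were tested, 7 of them negative and 5 positive. Kcnmb1, a smooth muscle channel subunit, had 5.60 and 4.33 in the knockout, against 6.54 and 7.41 in the wild type. The pericyte markers went both ways. Abcc9 (2.51) and Kcnj8 (2.09), both channel genes, had positive differences, and Notch3 (-1.04), Mcam (-0.91), Rgs5 (-0.58) and Cspg4 (-0.51) had negative ones. These genes were chosen for naming after their values were seen. The log2 of the summed linear level of these 14 markers was 12.72 and 12.35 in the knockout isolations and 12.80 and 12.57 in the wild-type isolations. The sum is dominated by Pdgfrb, the brightest marker, which had 12.03 and 11.88 in the knockout and 12.02 and 11.72 in the wild type. Pdgfrb was named after its values were seen. The median difference of the 12 tested markers was -0.55. The part of smooth muscle cells and pericytes in the result was not tested.

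Of 12 skeletal muscle markers, 9 were at or under the floor on every array, among them the myogenic factors Myod1, Myog and Myf5. Their summed level on the same scale was 9.87 and 9.42 in the knockout and 10.16 and 11.47 in the wild type, and it includes Acta1, which was highest in wild-type isolation 2. Of 11 keratinocyte markers, 6 were at or under the floor on every array, and their summed level was 8.58 and 8.50 in the knockout and 9.33 and 9.29 in the wild type. The sum includes Perp, which had 5.28 and 3.04 in the knockout and 8.10 and 7.90 in the wild type, and the median difference of the 5 tested markers was -0.01. Perp was named after its values were seen. The summed level of the 16 macrophage markers was 9.31 and 9.10 in the knockout and 13.56 and 9.61 in the wild type. Without wild-type isolation 1, where those markers were high, the median of the 35 genes was -0.46. The wild type was then isolation 2 alone, the highest array for 24 of the 35 genes, against 24.9% of all genes tested. The share of any of these cell types in the differences was not tested.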

How the data were processed

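Expression in adam9 -/- and adam9 +/+ newborn dermal fibroblasts was measured on 4 one-colour arrays. For each array the authors deposited normalized values, 1 per probe set, made with Affymetrix Expression Console per the submitters' processing notes. No source used here gives the summary algorithm, the background step or the base of the logarithm. A log2 scale was assumed for the deposited values because they ran from 1.70 to 14.4 with array medians of 4.84 to 4.88. Another base would alter the folds but not the signs. No detection calls were used, and precision is limited by the number of arrays.

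Of 45101 probe sets, 34958 named 1 gene. Names were updated by Entrez identifier through a RefSeq table of GRCm38.p6. Each gene took its probe set with the highest mean, and the 13271 of 18193 genes above the 40th percentile were fitted together with limma 3.58.1 in R 4.3.3 (lmFit, eBayes, no block, 2.38 prior degrees of freedom). Intervals are 95% moderated intervals. Summaries were made in Python 3.11.15. Genes with an absolute log2 difference of 1 or more, or an unadjusted p under 0.05, are given with all array values (10 genes). From the wider list up to 8 genes without overlap are named by size. The members, the gene lists, the tests and the alternatives were chosen with earlier results of these data known.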

Additional observations from a re-analysis of the deposited data

How the results depend on the processing

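Across the 12 arrangements other than leaving out an array (that of the report included), 0 of the members passed limma's test, and the smallest adjusted p, always that of Myh11, ran from 0.156 to 0.272. With the isolation number as a replicate block, 0 members passed, Myh11 had an adjusted p of 0.272 at an unchanged difference of -3.12, and the block changed no call of a member. The labels tie no isolations together, and the deviations of equally numbered isolations correlated with r = 0.116 across genes, which are not independent replicates, over 2 pairs, so the numbers were not taken as pairing. With an array left out, 0 members passed, and the lone array of a genotype is assumed to vary like those of the other. The number at an unadjusted p under 0.05 was 6 to 10 in these arrangements, and 3 to 11 with an array left out. The median ran from -0.40 to -0.26 in these arrangements, and from -0.46 to -0.19 with an array left out. The number lower without overlap was 19 with the mean over probe sets, 20 with the probe set of largest interquartile range (33 members tested), and 24 or 25 in the other arrangements of 4 arrays. The number higher without overlap was 1 in the report, 3 with the mean over probe sets, 2 with the probe set of largest interquartile range and 2 with any array left out, where fewer arrays can only keep or raise this count. Shares over all genes tested were not counted under these alternatives. Whether their counts without overlap or at an unadjusted p under 0.05 are unusual is therefore not known. Signs turned for a few members. With an array left out, Ankrd1 ran from -2.78 to 0.14, Tagln from -0.28 to 0.0455, Zyx from -0.25 to 0.0622, Cnn3 from -0.0283 to 0.0481 and Csrp2 from -0.24 to 1.05. Ankrd1, Tagln, Zyx and Cnn3 turned without wild-type isolation 2, Csrp2 and Cnn3 without knockout isolation 1, and Tagln without knockout isolation 2. Cnn3 was -0.00599 with cyclic loess, Srf was 0.0649 without _x_at and _s_at probe sets, and Actn1 was 0.00404 with the probe set of largest interquartile range. The cause of these turns was not tested, except that for Srf and Actn1 another probe set was used. Over all genes, 2 passed with the block and 0 with any array left out, against 9 in the report. Low values have no stated background level, so folds of dim probe sets such as that of Synpo2 in knockout isolation 2 depend on it.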
